A study of Mus musculus with 2 samples.

Results

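The 36 spermatid and sperm genes described here encode proteins that build the compact nucleus, acrosome, flagellum and ion channels of the male gamete. They were taken by symbol from a list grouped by function, which was chosen with earlier results of these data known. All 36 were found among the 21938 coding genes of the GENCODE M21 annotation of mm10. The series asked where the linker histone H1t lies along the genome of mouse spermatogenic cells. Germ cells came from the testes of ICR mice, an outbred stock, at 6 weeks of age, and chromatin was cut with an enzyme and precipitated with an in-house rabbit antibody against H1t. An input was the other of 2 libraries; it was not analysed here. The sources used here give no number of animals. The authors' peak list of the H1t library holds 76434 peaks on chromosomes 1 to 19, X and Y, each with a score that is the authors' own value (median 74.04, lowest 50, highest 3100 over the whole list). With 1 library there is no replicate, so every value below describes this library and no p-value is given. The depth of sequencing is unknown. The file gives positions and not RNA, so the labelled cell type could not be checked against marker genes, and a peak in this mixture of stages does not show in which stage H1t was bound.

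H1t is a testis-specific form of the linker histone, the protein that binds DNA where it enters and leaves the nucleosome. It appears in mid-meiosis and stays into the round spermatid. Later, in the elongating spermatid, histones give way to transition proteins and then to protamines, while the acrosome grows over the nucleus and the flagellum is assembled. Many genes for these structures are switched on after meiosis, a number of them by the activator form of CREM, which binds cAMP response elements.

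Start sites of these genes mostly lacked an H1t peak. A peak midpoint lay within 1 kb of the annotated gene start in 5 of 36 genes (13.9%), namely Brdt, Gapdhs, Dpy19l2, Spag6 and Crem, against 23.0% of all coding genes and 24.2% of those on the autosomes, where all 36 lie. The gene body held a peak midpoint in 10 of 36 (27.8%, against 47.2% of all coding genes). The body or its 10-kb flanks held one in 22 of 36 (61.1%, against 67.9%). The median density over body and flanks was 2.66 peaks per 100 kb, beside 2.43 for all coding genes, and the mean was 3.74 beside 3.53. The nearest peak midpoint was at a median of 10.9 kb from the gene start, with a range of 0.141 kb at Brdt to 81.5 kb at Odf1, and the median over all coding genes was 10.7 kb. The shares at start sites and in bodies thus lay below those of coding genes at large, while density and distance to the nearest peak lay close to theirs. The order of the densities turned with the flank: with 5-kb flanks the median was 0 beside 1.79 for all coding genes, and with 20-kb flanks 3.39 beside 2.35. None of these differences has a test.

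Much of the list is made of short genes, with a median length of 9.48 kb, beside 17.4 kb for all coding genes. A short body spans fewer bases, while the start-site window is equally wide for every gene. The part of length in these counts was not tested. None of the 10 genes under 5 kb had a start-site peak (17.9% of coding genes of that length did) or a body peak (21.2%), yet 7 of 10 had one in the body or flanks (55.0%). Of the 14 genes of 5 to 20 kb, 1 had a start-site peak (17.9%), 2 a body peak (34.5%) and 6 a peak in the body or flanks (60.6%). Of the 9 genes of 20 to 100 kb the counts were 3 (26.3%), 5 (59.3%) and 6 (73.6%). All 3 genes over 100 kb had a peak in the body (91.5%) and hence in the body or flanks (93.8%), and 1 had a start-site peak (36.7%). Start-site peaks were therefore found in 1 of 24 genes under 20 kb (17.9% of all coding genes under 20 kb) and in 4 of 12 longer ones (28.9%).

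**Figure D1:**
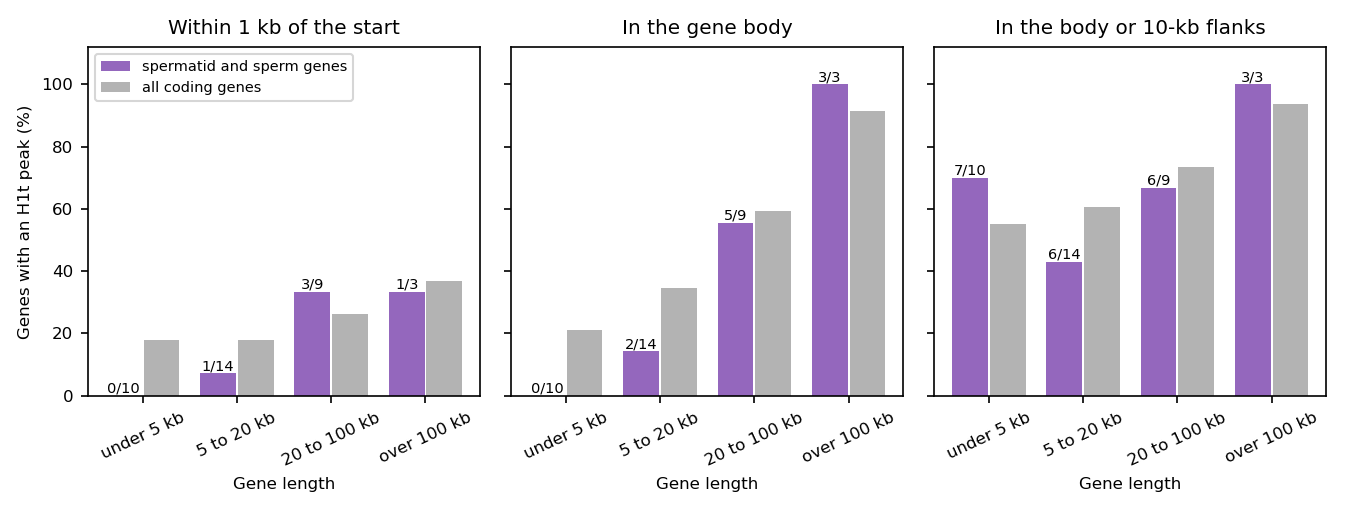
Share of genes (vertical axis, percent) with an H1t peak within 1 kb of the start, in the body, and in the body or 10-kb flanks, for the spermatid and sperm genes (purple, with counts) and all coding genes (grey) in 4 length classes. The purple bars at start sites stand at 0 of 10 and 1 of 14 in the short classes, below the grey bars of 17.9%.

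The sequences before the start sites show how different these promoters are. A pair of genes with a start-site peak is shown first, and capitals mark the bases that the peak covers. All are from RefSeq (GRCm38.p6), 5′ to 3′ on the gene's strand, lie before the RefSeq start and hold no annotated UTR or coding exon; that of Prm1 lies inside the gene as annotated in GENCODE, which has a start further upstream. The peak covered all 215 bases shown for Brdt (chr5:107330944-107331158, plus strand) and the 134 bases nearest to the start among the 250 shown for Dpy19l2 (chr9:24696294-24696543, minus strand).
Brdt: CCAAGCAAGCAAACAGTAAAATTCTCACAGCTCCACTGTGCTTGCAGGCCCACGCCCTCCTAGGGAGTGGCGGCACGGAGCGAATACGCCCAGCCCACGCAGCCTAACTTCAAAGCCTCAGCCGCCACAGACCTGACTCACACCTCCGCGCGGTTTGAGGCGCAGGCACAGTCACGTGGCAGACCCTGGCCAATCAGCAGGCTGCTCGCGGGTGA
Dpy19l2: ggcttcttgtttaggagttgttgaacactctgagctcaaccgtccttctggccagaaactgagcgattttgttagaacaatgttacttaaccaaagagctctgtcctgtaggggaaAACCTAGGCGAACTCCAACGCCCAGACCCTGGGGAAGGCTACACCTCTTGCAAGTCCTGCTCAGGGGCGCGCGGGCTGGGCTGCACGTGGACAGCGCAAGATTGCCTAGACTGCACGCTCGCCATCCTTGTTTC

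The next 3 sequences come from genes without a peak in the body or flanks, and their capitals mark CG dinucleotides, the sites of DNA methylation. Those of the protamine gene Prm1 (chr16:10796887-10797073, minus strand, 187 bases) and the transition protein gene Tnp1 (chr1:73015910-73016149, minus strand, 240 bases) hold 0 and 1 CG. That of Zpbp2 (chr11:98550847-98551096, plus strand, 250 bases) holds 19, more than the 14 of Brdt and the 11 of Dpy19l2.
Prm1: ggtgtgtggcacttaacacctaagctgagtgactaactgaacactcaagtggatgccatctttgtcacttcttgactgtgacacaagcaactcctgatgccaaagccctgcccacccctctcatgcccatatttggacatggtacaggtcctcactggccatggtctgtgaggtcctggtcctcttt
Tnp1: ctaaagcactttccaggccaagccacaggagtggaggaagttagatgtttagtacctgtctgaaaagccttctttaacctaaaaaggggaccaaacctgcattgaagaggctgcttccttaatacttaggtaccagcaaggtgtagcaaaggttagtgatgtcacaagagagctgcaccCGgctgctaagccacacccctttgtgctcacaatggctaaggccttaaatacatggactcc
Zpbp2: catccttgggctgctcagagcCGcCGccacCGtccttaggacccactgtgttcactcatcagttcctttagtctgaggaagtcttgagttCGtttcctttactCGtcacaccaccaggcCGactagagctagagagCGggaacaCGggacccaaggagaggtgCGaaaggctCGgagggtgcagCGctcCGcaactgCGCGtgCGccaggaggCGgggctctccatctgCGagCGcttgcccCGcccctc

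Nuclear packaging genes were free of peaks at their starts and bodies except for Brdt. That is 1 of 6 for each, against 23.0% of all coding genes at starts and 47.2% in bodies. Prm2, Prm3, Tnp1 and Tnp2 are under 5 kb, where only 17.9% and 21.2% of coding genes have one. In the body or flanks 4 of 6 had a peak (66.7%, against 67.9%). With 6 genes, such counts say little about the role. Brdt, a testis bromodomain protein that reads acetylated histones (chromosome 5, 107331159 to 107387058), had a single peak of 730 bp with a score of 78.80. Its midpoint lay 141 bp downstream of the start in the 5′ UTR, and no other peak lay in the 55.9 kb gene or its flanks. Tnp1 (chromosome 1, 73015074 to 73015909) had 0 peaks within 10 kb, and its nearest was 51.9 kb away. The protamine cluster on chromosome 16 holds Prm1, Prm2, Prm3 and the transition protein gene Tnp2 side by side, all on the minus strand. Prm1 had 0 peaks within 10 kb, while Prm2, Prm3 and Tnp2 each counted the same 2 peaks downstream of the cluster.

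Both of these peaks lie at the neighbouring gene Socs1, an inhibitor of cytokine signalling. The first (10783911 to 10784937, score 105.33) had its midpoint in the coding exon of Socs1, and the second (10785793 to 10786331, score 53.81) lay 526 bp from the Socs1 start. The nearer of the 2 was 1.87 kb past the end of Tnp2, 4.44 kb past Prm3 and 5.32 kb past Prm2. Because they share these peaks, the densities of Prm3 (9.80 peaks per 100 kb), Tnp2 (9.65) and Prm2 (8.08) are not separate observations. The annotated start of Prm1 belongs to a transcript that begins 9016 bp upstream of the RefSeq start, and neither start had a peak within 1 kb.

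**Figure D2:**
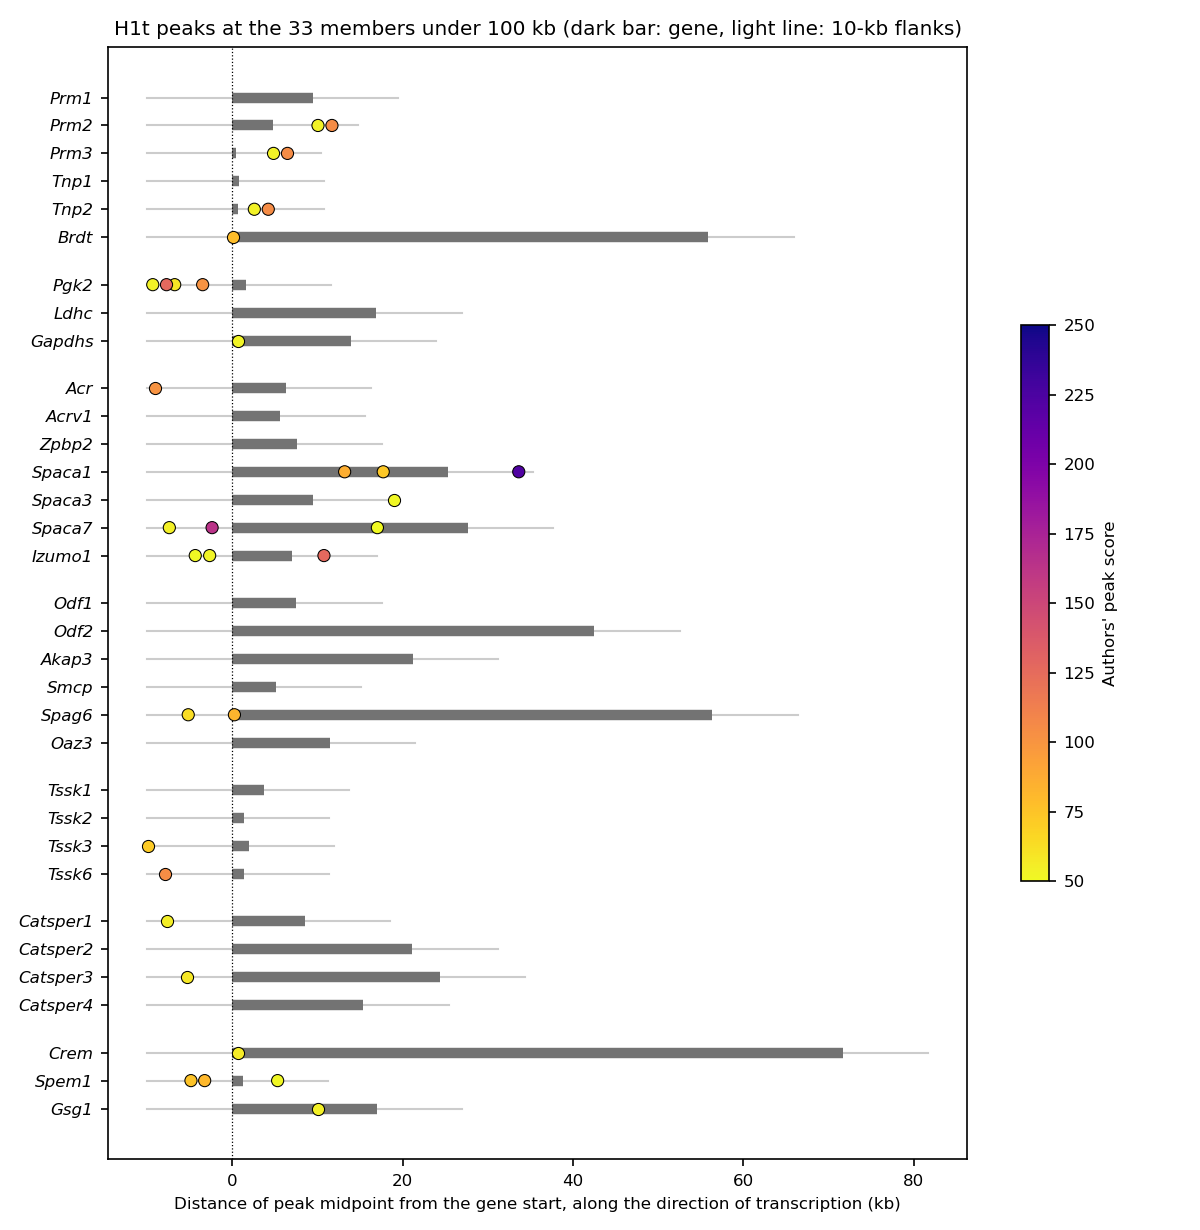
Distance of each H1t peak midpoint from the gene start along the direction of transcription (horizontal axis, kb) for the 33 spermatid and sperm genes under 100 kb, with gene bodies as dark bars, 10-kb flanks as light lines and colour for the authors' peak score. Dots at the dotted start line are seen for Brdt, Gapdhs, Spag6 and Crem, and 5 of the 6 flagellum and midpiece genes carry no dot.

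The 3 energy genes, sperm forms of glycolytic enzymes, had 3 different patterns. Pgk2, the testis phosphoglycerate kinase (chromosome 17, 40207015 to 40208640), had the highest density of all 36 genes, 18.5 peaks per 100 kb, from 4 peaks that were all upstream. Their midpoints lay 3469, 6750, 7712 and 9326 bp before the start, in no annotated gene, with scores of 101.21, 59.50, 127.23 and 53.41. The 1.63 kb gene itself held 0. Ldhc, the testis lactate dehydrogenase (chromosome 7, 46861203 to 46878142), had 0 peaks within 10 kb, the nearest being 23.8 kb from its start. Gapdhs, the sperm glyceraldehyde-phosphate dehydrogenase (chromosome 7, 30729775 to 30743681), had a single peak of score 52.82 whose midpoint lay 737 bp from the gene start, in an intron where the antisense transcripts Tmem147os and Gm26935 also run.

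The somatic relatives of these enzymes had no start-site peak. Pgk1, on X, had 0 peaks in body or flanks. Ldha (2.93 peaks per 100 kb) and Gapdh (4.04) each had 1 peak in the flanks and 0 in the body. Among the 3 pairs, only the testis gene Gapdhs carried a start-site peak, where 23.0% of all coding genes have one. The score of that peak, 52.82, was near the lowest of the list (50), and within 500 bp it was not counted. With 3 pairs, such counts do not separate testis from somatic forms.

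Acrosome and fertilization genes held most of the peaks by number. Of these 10 genes 8 had a peak in the body or flanks (67.9% of all coding genes did), 5 in the body (47.2%) and 1, Dpy19l2, at the start (23.0%). Their median density was 5.46 peaks per 100 kb and their mean 4.90, beside 2.43 and 3.53 for all coding genes. The number came from 3 genes over 100 kb, Spata16, Zpbp and Dpy19l2, with 38 of the 46 body peaks of the whole list. In humans, loss of SPATA16 or DPY19L2 is known to give round-headed sperm without an acrosome. Zpbp encodes an acrosomal protein that binds the zona pellucida.

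Spata16 (chromosome 3, 26637620 to 26983212) held 17 peaks, all in introns and none over an exon, or 4.92 per 100 kb of body. Their scores ran from 50.89 to 306.12 with a median of 102.30, and 10 were at 100 or more. The highest lay 98.8 kb from the start (26735932 to 26736923). A run of 5 peaks lay between 307 and 314 kb from the start, with scores of 193.00, 141.30, 102.30, 131.71 and 100.28. The first peak was 65.1 kb from the start.

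Zpbp (chromosome 11, 11279626 to 11462408) held 14 peaks, again all in introns, at 7.66 per 100 kb of body. Scores ran from 52.34 to 182.17 with a median of 87.47. The first lay 62.5 kb from the start, and its flanks held 0. Of the 2492 coding genes of at least 100 kb, 29.2% likewise had 0 peaks in the first 60 kb. The median body density of those genes was 1.80 per 100 kb (quartiles 0.917 and 3.01), and 66 of them were denser than Zpbp, 208 denser than Dpy19l2 and 224 denser than Spata16.

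Dpy19l2, which anchors the acrosome to the nucleus (chromosome 9, 24557047 to 24696293), held 7 body peaks (5.03 per 100 kb) and 3 in the flanks. The start-site peak (24695770 to 24696427, score 54.81) had its midpoint 195 bp into the first coding exon and overlapped 512 bp of exon. The other 6 lay in introns, 3 of them between 41.3 and 44.0 kb from the start with scores of 70.48, 70.15 and 61.86, and the strongest, at 207.99, 93.9 kb from the start. An even higher score of 232.30 belonged to a peak 6.73 kb past the gene's end. The start-site peak was the weakest of the 10.

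**Figure D3:**
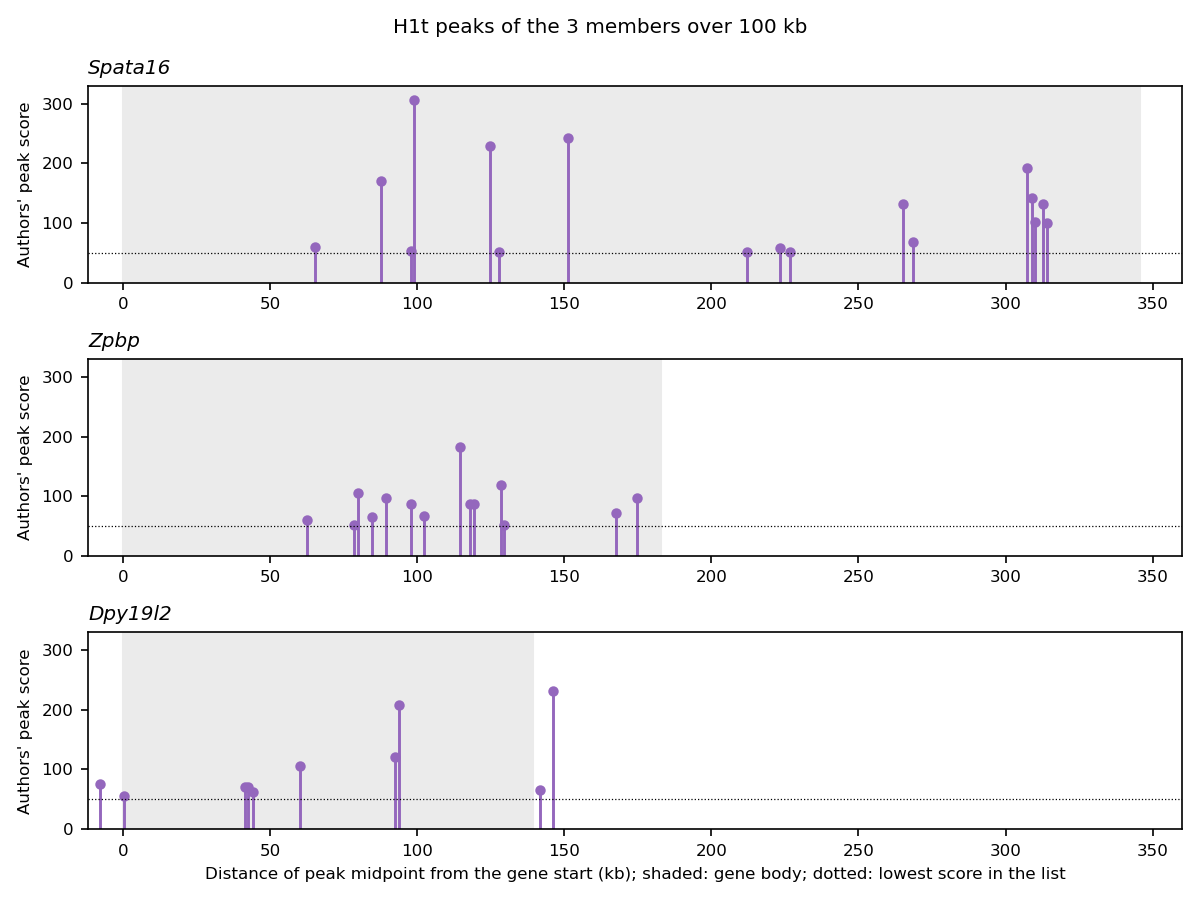
Authors' peak score (vertical axis) against the distance of each peak midpoint from the gene start (horizontal axis, kb) in Spata16, Zpbp and Dpy19l2, with gene bodies shaded and the lowest score of the list dotted. The first peaks of Spata16 and Zpbp stand at 65.1 and 62.5 kb, and Dpy19l2 has a low peak at its start.

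The shorter acrosome genes had 3 or fewer peaks each, and their densities ran from 0 to 11.1 per 100 kb at Izumo1, with 6.62 at Spaca1 and 6.29 at Spaca7. Spaca1, an inner acrosomal membrane protein (chromosome 4, 34024874 to 34050191), had 2 intronic peaks with scores of 72.91 and 86.13. A stronger peak of 222.67 lay 8.32 kb past its end. Spaca7 (chromosome 8, 12573029 to 12600744) had an intronic peak of 50.01 and 2 upstream peaks of 163.54 and 53.92, of which the nearer lay 2360 bp before the start. Both of the latter fell in D630011A20Rik, annotated as a non-coding gene of a bidirectional promoter. Spaca3, a lysozyme-like acrosomal protein, had a single peak of 50.89 lying 9.57 kb past its end.

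Izumo1, the sperm surface ligand of the egg receptor Juno (chromosome 7, 45621811 to 45628823), had 3 peaks, all in neighbours. Of these, 2 upstream ones (51.20 and 52.63) lay in the 5′ UTR and coding exon of Fut1, a fucosyltransferase gene, and 1 downstream (127.14) in a coding exon of Rasip1. Acr, the acrosomal protease acrosin, had a peak of 101.17 in the 3′ UTR of Shank3, 9.10 kb upstream. Acrv1, an acrosomal matrix protein gene, and Zpbp2, the relative of Zpbp, had 0 peaks within 10 kb, in contrast to the 14 of Zpbp itself.

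Flagellum and midpiece genes had the smallest share of genes with a peak in the body or flanks among the 7 roles, 16.7% (1 of 6, against 67.9% of all coding genes). Of the 6 genes, 5 had 0 peaks in the body or flanks: Odf1 and Odf2 of the outer dense fibres, Akap3 of the fibrous sheath, Smcp of the mitochondrial sheath and the antizyme gene Oaz3. Their nearest peaks were 81.5, 11.8, 68.6, 24.8 and 43.1 kb from the start. Spag6, a protein of the central pair of the axoneme (chromosome 2, 18694032 to 18750413), had a peak of 82.09 whose midpoint lay 261 bp from the gene start and another of 63.05 lying 5160 bp upstream. That gene start belongs to a non-coding transcript. The RefSeq start of Spag6 lies 4990 bp further downstream and had 0 peaks within 1 kb. Its close relative Spag6l, on chromosome 16, had 0 start-site peaks, 4 in the body and 7 in body and flanks (7.26 per 100 kb against 2.62 for Spag6).

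The testis-specific serine kinases, which act in late spermatids, had 0 start-site and 0 body peaks in 4 genes, all under 5 kb, where 17.9% and 21.2% of coding genes have one. Tssk1 and Tssk2 lie next to each other on chromosome 16 and had 0 peaks within 10 kb. Tssk3 had a peak of 71.33 lying 9862 bp upstream, within the antisense gene Gm12979. Tssk6 had one of 104.28 lying 7924 bp upstream, in a coding exon of Ndufa13, a gene of respiratory complex I.

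The 4 pore subunits of CatSper, the sperm calcium channel needed for hyperactivated swimming, had 0 start-site and 0 body peaks, against 23.0% and 47.2% of all coding genes. With 4 genes, such counts say little about the role. Catsper1 (8.54 kb) and Catsper3 (24.4 kb) each had 1 upstream peak, at 7671 and 5280 bp, with scores of 55.05 and 57.82. That of Catsper3 fell in the antisense gene 4930451E10Rik. Catsper2 and Catsper4 had 0 peaks within 10 kb, and their nearest were 22.8 and 59.5 kb away.

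Among the remaining genes, Crem (chromosome 18, 3266048 to 3337748) had a single peak, of score 56.69, in an intron 649 bp from the gene start, overlapping 103 bp of exon. Gsg1, a germ cell-associated gene (chromosome 6, 135237326 to 135254351), had a peak of 54.20 in a coding exon 10.1 kb from its start, where the 3′ UTR of Fam234b also lies. Spem1, needed to shed the cytoplasm of late spermatids, had 3 flanking peaks (14.1 per 100 kb) and 0 in its 1.30 kb body. Of these, 2 (80.81 and 75.78) lay in coding exons of Nlgn2, a synaptic adhesion gene, and 1 (51.21) in a coding exon of its neighbour Spem2.

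Some of the counted peaks lay in other genes. The 36 genes counted 75 gene and peak pairs, made by 71 different peaks, of which 25 lay outside the bodies. Of those 25, 9 had their midpoint inside another coding gene, 7 of them in its coding exon, and 12 lay in no annotated gene. Within the bodies, 42 of 46 peaks lay in introns and 2 in coding exons, those of Dpy19l2 and Gsg1. The same shares over all peaks were not computed. When only peaks nearest to the gene's own start were counted, 15 of 36 genes kept one in the body or flanks, against 22 with all peaks. That share over all coding genes was not computed. A gene lost in this way need not have its peaks in neighbours. Zpbp was lost although its 14 peaks lie in its own introns, because starts of other coding genes are slightly nearer to them.

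The start-site peaks were weak to middling. Their scores ran from 52.82 at Gapdhs to 82.09 at Spag6, 2 of 5 lay above the list median of 74.04, and none reached 100. Over all coding genes with a start-site peak the best score had a median of 70.56 and quartiles of 57.87 and 97.02. With the start of the principal coding transcript in place of the gene start, 3 genes kept a start-site peak (Brdt, Dpy19l2 and Crem; 24.4% of all coding genes), and within 500 bp of the gene start 3 did (Brdt, Dpy19l2 and Spag6; 18.2%). No gene had a peak midpoint between 1 and 2 kb from its start. The 71 different peaks had a median score of 75.69, and 35.2% of them reached 100, as did 29.3% of the whole list.

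Over all coding genes, the share with a start-site peak rose with promoter GC content. The RefSeq table matched 31 of the 36 genes, and Acr, Odf1, Catsper1, Crem and Oaz3 were not matched. In the window from 250 bases before to 50 after the RefSeq start, the median GC content of the 31 was 53.3% (range 38.0% at Smcp to 74.7% at Catsper2), beside 57.0% for 16492 coding genes. The ratio of observed to expected CG dinucleotides had a median of 0.29 beside 0.60. All coding genes were divided into 5 classes of rising GC content. A peak lay within 1 kb of the RefSeq start in 4.15%, 11.8%, 22.6%, 34.6% and 47.3% of them. The lowest 2 classes (up to 54.0% GC) held 17 of the 31 genes, among them Prm1, Prm2, Tnp1, Pgk2, Ldhc, Spata16 and Zpbp, and none of these 17 had such a peak.

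In the third class 2 of 7 genes had one (Gapdhs and Dpy19l2), in the fourth 1 of 5 (Brdt) and in the highest 0 of 2 (Odf2 and Catsper2). Together that is 3 of 31 (9.68%), beside 23.8% of all 16492 genes and beside 18.7% when the class shares are weighted by the number of these genes in each class. The genes of high GC content without a peak included Zpbp2 (64.0%), Spaca1 (63.0%), Tssk6 (60.7%), Odf2 (68.0%) and Catsper2. The part of GC content in the difference was not tested.

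**Figure D4:**
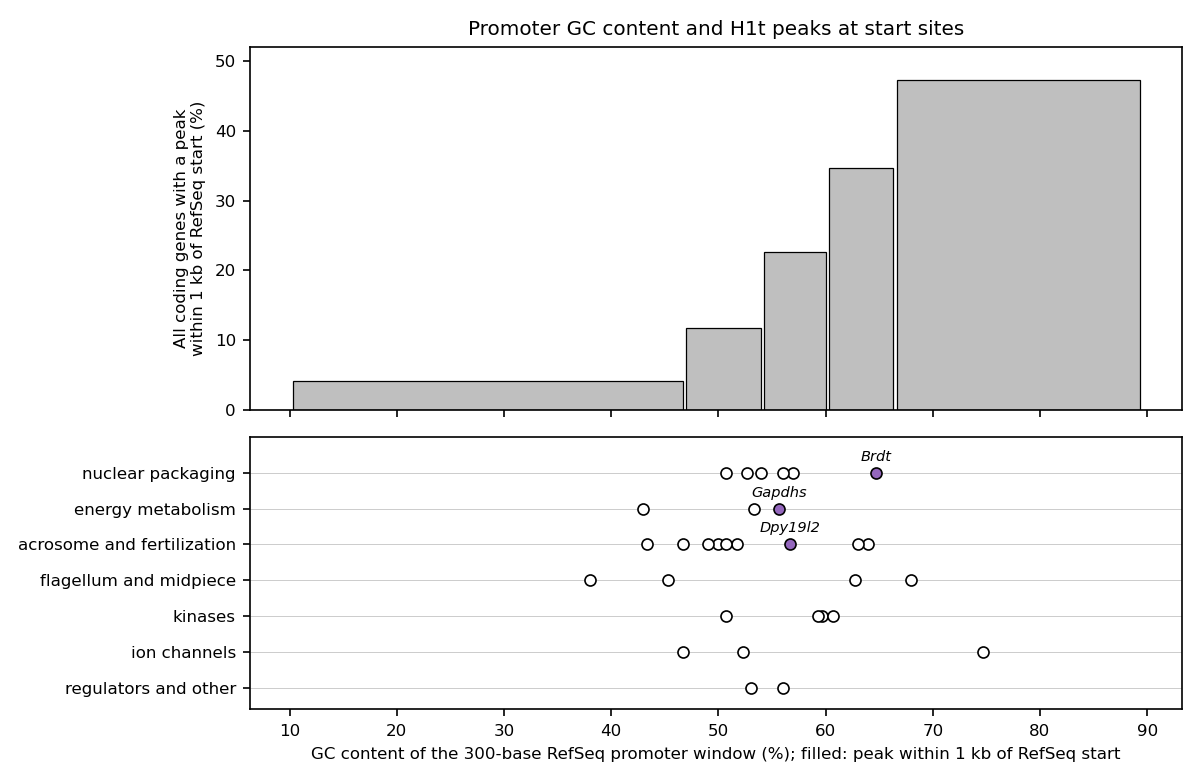
Top, share of all coding genes with a peak within 1 kb of the RefSeq start (vertical axis, percent) in 5 classes of promoter GC content (horizontal axis, percent); bottom, GC content of the 31 matched spermatid and sperm genes by role, filled where such a peak was found. The share climbs from 4.15% to 47.3%, and the filled points are Gapdhs, Dpy19l2 and Brdt.

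Elements read by CREM were searched as letters on both strands of these 300-base windows. The full element TGACGTCA was found in 1 of 31 genes (2.43% of all coding genes), at Izumo1, and lies at position -96, counted from the start. It is shown in capitals in the 120 bases before the start (chr7:45621691-45621810, plus strand), which no H1t peak covers.
Izumo1: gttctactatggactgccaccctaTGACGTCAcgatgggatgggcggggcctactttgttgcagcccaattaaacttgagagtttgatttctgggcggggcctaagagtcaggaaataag

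The shorter TGACG, which the full element holds on both strands, was found in 10 of 31 (32.3%, against 24.5%), namely Izumo1, Ldhc, Gapdhs, Zpbp2, Spaca1, Spaca3, Dpy19l2, Odf2, Tssk6 and Catsper2. The variant TACGTCA was found in 0 of 31 (against 1.59%). TATAAA, which is not a CREM element, was searched in the same way and found in 3 (9.68% against 12.9%). These were Prm2, Spaca7 and Gsg1. All 3 matches lay on the strand opposite to the gene, read there as TTTATA from positions -31, -242 and -175. Of the 3 genes with a peak at the RefSeq start, 2 (Gapdhs and Dpy19l2) held TGACG, both after the start. A match describes letters only and shows no binding.

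Other genes listed under the same roles gave a similar share at start sites. Their list is not limited to spermatid genes, and its energy part holds Pgk1, Ldha and Gapdh, the somatic relatives described above. Of 90 such genes listed by role, 89 were matched, and 15 of them (16.9%) had a start-site peak, against 23.0% of all coding genes. A body peak was found in 36 (40.4%, against 47.2%), a larger share than the 27.8% of the genes described above. The 2 sets differ in length, with medians of 21.1 kb and 9.48 kb, and the part of length was not tested. A peak in the body or flanks was found in 58 (65.2%, against 67.9%). The median density was 2.08 peaks per 100 kb, beside 2.66 for the genes described above and 2.43 for all coding genes. Ion channel and transport genes had 0 start-site peaks in 12, as in the 4 Catsper genes above. Long auxiliary CatSper genes nevertheless held many body peaks, 14 in Catspere2 and 11 in Catsperb. Flagellum genes had 1 of 19, at Gpx4, a selenoprotein of the midpiece (score 51.00). In the body or flanks 11 of these 19 had a peak (57.9%) and in the body 7 (36.8%), beside 1 of 6 for both among the flagellum genes described above.

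Acrosome genes had 5 of 16, at Agfg1 (77.84) and Gopc (70.34), which act in vesicle traffic to the acrosome, Pick1 (52.34), Spaca4 (51.86) and Spesp1 (53.37). Regulators had 4 of 14 (28.6%), at the transcription factor genes Mybl1 (64.49), Sox30 (104.95) and Sox5 (72.67) and at Tbpl1 (82.90), a relative of the TATA-binding protein. The kinase list had 1 of 5, Stk33 (100.22). The energy list had 2 of 12 (16.7%), the testis gene Pdha2 (64.39) and the glucose transporter gene Slc2a3 (106.91). The packaging list had 2 of 11 (18.2%), the spermatid linker histone gene H1fnt (148.03) and the testis histone gene Hist1h2ba (52.95), which encodes a germ cell form of H2B. With lists this short, such counts say little about a role.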

How the data were processed

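Chromatin immunoprecipitation with an H1t antibody followed by sequencing was done on mouse spermatogenic cells, per the labels' protocols. Reads were aligned to mm10 with Bowtie 1.1.2, per the submitters' processing notes. The sources used here do not name the version or threshold of the peak caller, the use of the input or the handling of reads with several positions. Peak names in the deposited file begin with MACS. The deposited score of each peak is the authors' value and was used only to describe and filter peaks. Depth is unknown, so no counting interval is given.

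Peaks were compared with GENCODE M21 (mm10), with positions counted from 1. A peak was counted by its midpoint: within 1 kb of the gene's 5′ end, in the body, or in the body and 10 kb on each side. The same counts over all coding genes are printed as background, with no test. The annotated class of a peak is that of its midpoint in the named gene. Promoter windows came from the RefSeq table of GRCm38.p6, 1 per gene (the entry nearest to the annotated start), and GC classes use peaks within 1 kb of that RefSeq start. The counting was tested on simulated data with planted peaks, all of which were recovered. Alternatives covered windows, flanks, overlap, score, start definition and shared peaks. The members, roles and lists were chosen with earlier results of these data known. The text names all 36 genes, the other role genes with a start-site peak, and most genes that hold a peak counted for one of the 36 (Yjefn3 at the Tssk6 peak, Gm45437 at an Izumo1 peak and Gm6225 at the Crem peak are named only here). Catspere2, Catsperb and the sequences shown were picked after their values were seen. Python 3.11.15, numpy 2.4.6, pandas 2.3.3 and matplotlib 3.10.9 were used.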

Additional observations from a re-analysis of the deposited data

How the results depend on the processing

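The count of 5 genes with a start-site peak stayed at 5 with a 2-kb window, any overlap, any transcript start or the autosomal background (26.8%, 24.7%, 30.0% and 24.2% of coding genes). It was 3 within 500 bp, 3 at principal transcript starts, 2 with peaks above the median score (10.4% of coding genes) and 0 with scores of 100 or more (5.21%). Genes with a body peak fell from 10 to 6 above the median score (27.6%) and to 3 at scores of 100 or more (17.2%). Genes with a peak in the body or flanks were 15 with 5-kb flanks (58.8% of coding genes), 26 with 20-kb flanks (79.0%) and 12 at scores of 100 or more (26.4%). The share of the 36 genes lay below that of coding genes with either flank, but above it at scores of 100 or more. Fewer peaks were counted by construction in the score settings. The median density of 2.66 was 0 for gene bodies alone, 0 with 5-kb flanks (1.79 for all coding genes), 0 above the median score and 0 at scores of 100 or more, and 3.39 with 20-kb flanks (2.35). Where windows overlap, merging left 32 loci, of which 20 held a peak, with a median of 2.66. Of 180 values for single genes under 5 of these settings, 120 were within 1.5 times the reported count. This share includes values fixed in advance: 14 of the 36 genes had 0 peaks in the main count. For them, 5-kb flanks and the score settings could only return 0 again. The principal transcript start, the merged count and the autosomal background were chosen after seeing the data. No paired analysis was possible because the series has 1 library with a peak list. Without depth, replicate or input, a missing peak cannot be told from a signal below the authors' threshold.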
